A study of Homo sapiens with 18 samples.

Results

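The 8 genes *INSM1*, *NKX2-2*, *PAX4*, *ISL1*, *FEV*, *ST18*, *MYT1* and *RUNX1T1* act after *NEUROG3* in pancreatic endocrine differentiation. They were taken from the deposited RNA sequencing table by gene symbol, and all 8 were found among the 21944 genes it lists. Pancreatic progenitors derived from human embryonic stem cells were dissociated with accutase on day 19 of differentiation, reseeded on fibronectin (FN) or on the laminin isoform LN411, and harvested after 3, 6 or 24 h. The 6 groups were FN at 3 h, FN at 6 h, FN at 24 h, LN411 at 3 h, LN411 at 6 h and LN411 at 24 h, with 3 samples each and 18 in all. The labels give the cell line as HUES4, whereas their growth protocol and the study's methods name NGN3-GFP cells, a *NEUROG3* reporter line derived from SA121. All samples came from stem cell-derived cultures, but the sources name the line differently, and its identity was not resolved here.

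The column analysed here was the authors' mean normalized count, a single value per gene pooled over samples. The remaining 5 columns of values hold the authors' own comparison of LN411 with FN and were not used. No value of a single sample, substrate or time was used here, only whether a gene was listed at a time. The levels below therefore carry no error between replicates, and no difference between LN411 and FN or between times was tested. Each level mixes both substrates and all 3 times, whose shares in it can differ from gene to gene, so that levels and ranks in any single group may differ from those given here.

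*NEUROG3* is switched on for a short time in bipotent progenitors of the pancreatic epithelium and commits them to the endocrine lineage. The factors that follow it stop progenitor growth, move cells out of the epithelium and sort them into the islet cell types. Most of the 8 are DNA-binding proteins of the zinc finger, homeodomain or ETS families. *RUNX1T1* encodes a transcriptional corepressor. Several of them also work in neurons, which share much of this programme with endocrine cells.

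In the pool of all groups, the endocrine factors had low levels, and *INSM1* stood above the others. *INSM1* encodes a zinc finger repressor needed for endocrine differentiation. Its mean normalized count was 565, higher than that of 56.3% of listed genes. This gene alone supplied 67.2% of the summed count of the 8. It was the only one of them above the median of all listed genes, which was 297. Ranked among protein-coding genes only, it stood at percentile 38.7, below their median.

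The 2 homeodomain genes that followed were well below *INSM1*. *NKX2-2*, which is required for the formation of beta cells, had a mean normalized count of 110 (percentile 41.2). *PAX4*, which directs endocrine progenitors towards beta and delta cells, had a mean normalized count of 72.9 (percentile 37.3). *ISL1*, a LIM homeodomain factor of maturing islet cells and motor neurons, was lower again, with a mean normalized count of 30.3 (percentile 27.8). These 3 genes lay between the lower quartile of all listed genes, a count of 23.9, and their median. Among protein-coding genes only, they fell below the lower quartile, at percentiles 21.7 for *NKX2-2*, 18.6 for *PAX4* and 12.1 for *ISL1*.

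The other 4 genes lay below the lower quartile. *FEV*, an ETS factor of endocrine progenitors and of serotonergic neurons, had a mean normalized count of 19.0 (percentile 21.8). *RUNX1T1* had a mean normalized count of 15.6 (percentile 18.9). *MYT1* and *ST18*, which encode zinc finger proteins of the same family, had mean normalized counts of 14.5 (percentile 17.8) and 14.1 (percentile 17.4). The counts of *RUNX1T1*, *MYT1* and *ST18* lay within a factor of 1.11 of each other, and without a spread between samples their order cannot be told.

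**Figure D1:**
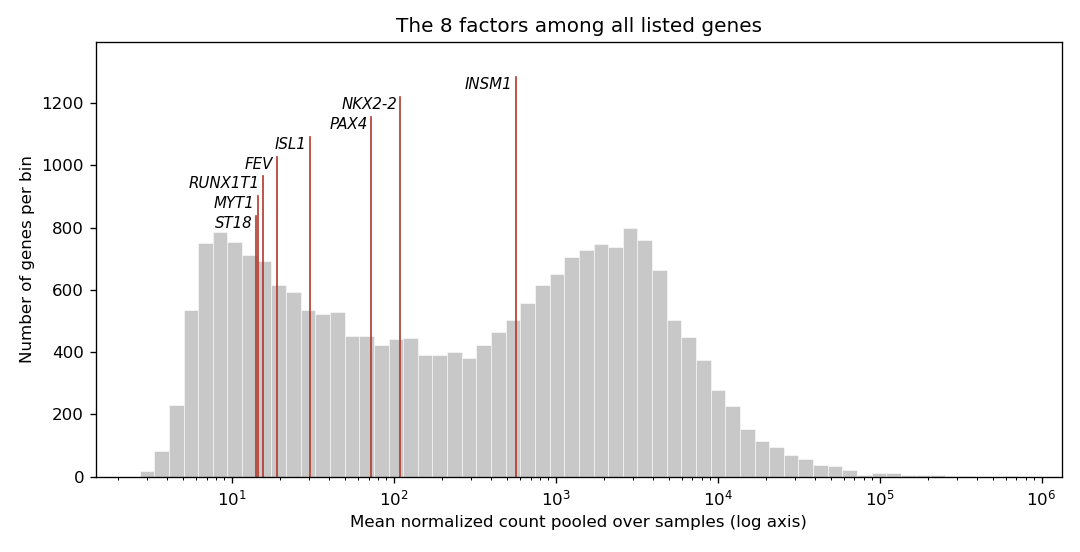
Histogram of the authors' mean normalized count of all 21944 listed genes (log axis, 60 bins of equal width on the log scale), with a red line at the count of each of the 8 factors; the height of the red lines carries no value. *INSM1* at 565 is the only factor above the median of 297, and *FEV*, *RUNX1T1*, *MYT1* and *ST18* lie below the lower quartile of 23.9.

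The mean counts of all listed genes summed to 53217583. Scaled to a sum of 1000000 counts, *INSM1* amounted to 10.6 counts, *ST18* to 0.264 and the 8 genes together to 15.8. In RNA from a mixed culture, few cells of a type cannot be told apart from little RNA per cell, so that a low level may stem from either. A mean over all groups can also be low for a gene expressed in only some of them. Which of these held was not tested.

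Counts favour long transcripts, and the counts, shares and percentiles above were not corrected for length. Below, levels of different genes were compared per kilobase of the longest annotated transcript, except where a count is named. *INSM1*, whose 1 exon gives a transcript of 2846 nucleotides, had a mean normalized count of 199 per kilobase. *NKX2-2* followed at 51.9 per kilobase and *PAX4* at 32.7. The level per kilobase of *INSM1* was thus 3.83 times that of *NKX2-2*, and that of *NKX2-2* was 1.59 times that of *PAX4*.

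*FEV* and *ISL1* were close on this scale, at 13.5 and 12.6 per kilobase. Ranked per kilobase among all genes matched to the annotation, they stood at percentiles 22.6 and 21.5, both below the lower quartile. Their order was the opposite of that of their counts, since the *FEV* transcript has 1406 nucleotides and that of *ISL1* has 2394. *PAX4*, the next above them, was 2.41 times *FEV* per kilobase.

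The 3 genes with the lowest counts also have the longest transcripts of the 8, and they fell further behind on this scale. *MYT1* (transcript of 5758 nucleotides) stood at 2.51 per kilobase, *ST18* (6413 nucleotides) at 2.19 and *RUNX1T1* (7540 nucleotides) at 2.06. Ranked per kilobase, their percentiles were 3.39 for *MYT1*, 2.68 for *ST18* and 2.40 for *RUNX1T1*. *ISL1*, the next above them, was 5.03 times *MYT1* per kilobase, whereas *MYT1* was 1.15 times *ST18*. From *INSM1* to *RUNX1T1* the levels per kilobase spanned a factor of 96.3, against a factor of 40.2 between the highest and the lowest count. With merged exon length the span was 204 and *ST18* was lowest, and with coding length it was 87.9 and *MYT1* was lowest. Per kilobase of the longest transcript, the widest gap between neighbours was thus that of 5.03 below *ISL1*, followed by 3.83 below *INSM1*. *NKX2-2*, *PAX4*, *FEV* and *ISL1* lay between these gaps but did not form 1 level, since they ran from 51.9 to 12.6. The gap below *INSM1* depended on the length used, with 370 for *INSM1* and 135 for *NKX2-2* per kilobase of coding sequence. None of these values has an error.

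**Figure D2:**
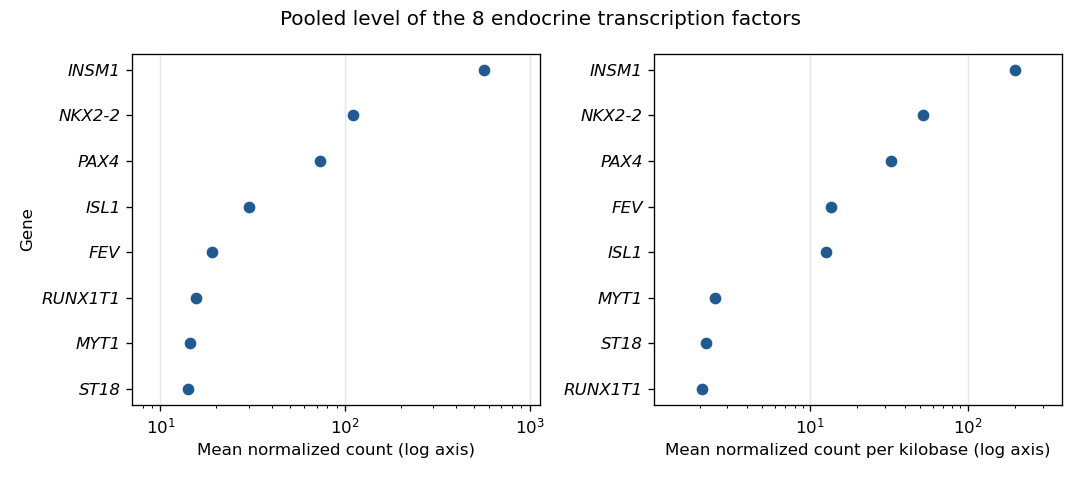
Pooled level of each of the 8 factors as the authors' mean normalized count (left) and per kilobase of the longest annotated transcript (right), both on log axes, with 1 point per gene and no error since each is a single pooled value. *INSM1* is highest on both scales, at 565 and 199, and *MYT1*, *ST18* and *RUNX1T1* sit apart at 2.06 to 2.51 per kilobase.

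Gene positions were read from the GENCODE v44 annotation of GRCh38, which is newer than the annotation used by the authors on that assembly. On chromosome 20 lie *INSM1* (ENSG00000173404, 20368104 to 20370949, forward strand), *NKX2-2* (ENSG00000125820, 21511017 to 21514064, reverse strand) and *MYT1* (ENSG00000196132, 64102394 to 64242253, forward strand). *INSM1* and *NKX2-2* are 1.14 Mb apart, and *MYT1* lies 42.6 Mb from *NKX2-2*. *PAX4* (ENSG00000106331) lies on chromosome 7 from 127610292 to 127618142, on the reverse strand. *ISL1* (ENSG00000016082) lies on chromosome 5 from 51383448 to 51394730, on the forward strand. *FEV* (ENSG00000163497) lies on chromosome 2 from 218981087 to 218985184, on the reverse strand. *ST18* (ENSG00000147488, 52110838 to 52460959) and *RUNX1T1* (ENSG00000079102, 91954972 to 92103286) both lie on the reverse strand of chromosome 8.

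The genes differ widely in structure. *ST18* spans 350 kb with 28 exons in its longest transcript, which covers 1.83% of the gene. *RUNX1T1* spans 148 kb with 12 exons and *MYT1* 140 kb with 25 exons. The 5 genes with higher levels per kilobase span 2.85 kb (*INSM1*) to 11.3 kb (*ISL1*). The 3 widest genes were also the 3 with the lowest level per kilobase, a description of 8 genes without a test. They also have the longest transcripts of the 8, and division by that length is part of this relation. By count *FEV* was 1.22 times *RUNX1T1*, against 6.55 times per kilobase.

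The gene counting of STAR sets aside reads that overlap more than 1 gene, so that without strand information reads from shared exon sequence are left out of the count. The library kit named by the labels does not mark the strand, and the strand setting of the counting is not given in the sources used here. In GENCODE v44, exons of 2 of the 8 genes overlap exons of another gene. For *NKX2-2*, the antisense transcript *NKX2-2-AS1* shares 638 nucleotides, or 30.1% of its exon sequence, and the antisense gene ENSG00000289590 shares 295 nucleotides, or 13.9%. For *RUNX1T1*, the antisense gene ENSG00000253576 shares 66 nucleotides, or 0.488%. None of these 3 genes is among those listed in the table. The part of the overlap in the level of *NKX2-2* was not tested, nor was its presence in the older annotation.

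All 8 factors were listed at each of the 3 times, as were 18672 genes, or 85.1% of the table. The pooled value of a gene was the same wherever it was listed. A listing thus tells only that the gene has an entry for that time, not that it was expressed then. Among the 2323 genes with a mean normalized count between 10 and 20, the range that holds *FEV*, *RUNX1T1*, *MYT1* and *ST18*, 70.0% were listed at each time. This range was chosen after the levels were seen.

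*NEUROG3* itself had a mean normalized count of 451, below the 565 of *INSM1*. Per kilobase this order turned, with 289 for *NEUROG3* and 199 for *INSM1*. Both orders are those of the pool and may not hold on either substrate or at each time. *NEUROD1*, a basic helix-loop-helix factor that *NEUROG3* activates, stood at 19.8 per kilobase, between *PAX4* and *FEV*.

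A list of 11 other genes of the endocrine programme was set beside the 8 factors, and all 11 were listed at each time. Their median level was 324 per kilobase, against 13.1 for the 8 factors and 99.6 for all genes matched to the annotation. Of the 11, 8 lay above *INSM1* per kilobase and none lay below *RUNX1T1*. The nearest to *INSM1* was *RFX3*, a regulator of cilia and islet cell genes, at 251 per kilobase, or 1.26 times *INSM1*, and the next was *NEUROG3* at 1.45 times *INSM1*. Nearest to *RUNX1T1* among both lists were *ST18* and *MYT1*.

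The highest of the 11 are genes that are also active in pancreatic progenitors before endocrine commitment. *SOX4*, a widely expressed SOX factor, stood at 8405 per kilobase and *MNX1*, a homeodomain factor of early pancreatic epithelium, at 2339. *RFX6* (1887) and *GLIS3* (916), which are needed for islet cell formation, were also above *INSM1* per kilobase. The same held for *NKX6-1* (875), a homeodomain factor of progenitors and beta cells, and for *MLXIPL* (324), which encodes a glucose-responsive factor. *LMX1B*, a LIM homeodomain gene, stood at 76.3, between *INSM1* and *NKX2-2*. *PAX6*, a paired homeodomain factor of islet cells, stood at 3.55, between *ISL1* and *MYT1*.

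**Figure D3:**
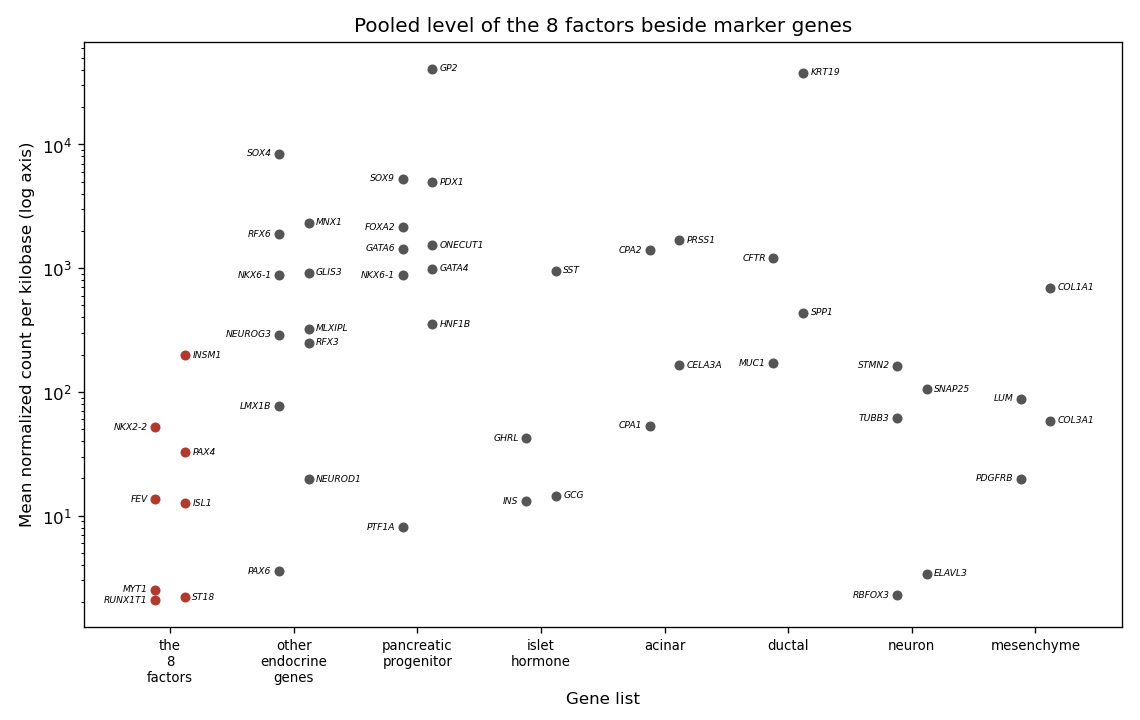
Pooled level per kilobase of the longest transcript (log axis) of the 8 factors (red) and of the listed genes of 7 other lists (grey), with 1 point per gene and points shifted sideways for legibility; *NKX6-1* belongs to 2 lists. The 8 factors run from 2.06 to 199, and 9 of the 10 progenitor markers lie above *INSM1*.

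For the labelled cell type, 10 markers of pancreatic progenitors were examined, and all were listed. Their median was 1483 per kilobase, and 9 lay above *INSM1*, among them *PDX1* (4969), *SOX9* (5259) and *GP2* (40743), a surface marker used to purify such progenitors. The exception was *PTF1A*, a factor of early multipotent and acinar cells, at 8.10 per kilobase, below *ISL1*. These levels show that the markers were expressed but not that they were particular to this label, since all 3 liver markers, both listed intestinal markers and 3 of 4 ductal markers also lay above *INSM1*, with a liver median of 10996 per kilobase.

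Islet hormone genes, which follow the 8 factors in differentiation, were uneven. *SST* (somatostatin) had a mean normalized count of 581, or 958 per kilobase. *GHRL* (ghrelin) had a count of 60.4, *GCG* (glucagon) 16.3 and *INS* (insulin) 8.32, the last listed at 1 of the 3 times. That listing does not tell when *INS* was expressed. *PPY* (pancreatic polypeptide) was not among the genes listed. Per kilobase, *GCG* stood at 14.5, between *PAX4* and *FEV*, and *INS* lay between *FEV* and *ISL1*.

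Marker lists of other cell types, of proliferation and of pluripotency were also examined. Their pooled levels do not tell which cells expressed these genes, nor that such other cells were present. Of 6 neuronal markers, 5 were listed, from 2.27 per kilobase for *RBFOX3* to 162 for *STMN2*, with a summed count of 1323. *SNAP25* stood at 105 and *TUBB3* at 61.5 per kilobase, and *ELAVL3* (3.38) and *RBFOX3* were close to *MYT1*. *ELAVL4* was not among the genes listed. Some of these genes are also active in endocrine cells, and the source of their RNA was not tested. Of 5 mesenchymal markers, 4 were listed, with a summed count of 4759 and *COL1A1* highest at 692 per kilobase. Acinar markers (4 of 5 listed) reached 1686 per kilobase for *PRSS1*, and ductal markers (4 of 4) reached 37998 for *KRT19*. Liver markers (3 of 3) reached 12507 per kilobase for *APOA1*, intestinal markers (2 of 3) 3105 for *VIL1*, and proliferation markers (2 of 2) 958 for *TOP2A*. *LIN28A* at 2599 was the only one of 3 pluripotency markers listed. Endothelial markers (3 of 3) reached 11.0 for *PECAM1*, and neither of 2 blood markers was listed. The part of other cell types in the levels of the 8 factors was not tested.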

How the data were processed

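Bulk polyA RNA of 18 samples was sequenced. According to the study's methods and the submitters' processing notes, the authors demultiplexed with bcl2fastq, aligned reads with STAR (2.7.2d) to GRCh38, counted reads per gene with STAR and the GENCODE v32 annotation, and normalized with DESeq2 (1.34.0). The values used are a signal, the mean of counts after division by size factors, as the authors deposited it. It was equal at 3, 6 and 24 h apart from rounding, and the table does not name the samples averaged, taken here to be all 18. The table's columns of log2 fold changes, their errors, test statistics and p-values with and without adjustment are the authors' own comparison and were neither used nor printed. Depth per sample is unknown.

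Genes were matched by Ensembl identifier to GENCODE v44 (99.6% of 21944). Levels per kilobase used the longest transcript, and percentiles ranked all listed genes. The ranking was tested on simulated data with known order. Named are the 8 genes, 11 other endocrine genes, the 2 genes nearest to the highest and to the lowest of the 8, and marker lists. A few genes of the planned lists are not reported here. These members and lists were chosen with earlier results of these data known. The planned edgeR test of LN411 against FN needs values per sample and was not run, nor was protein identity between members, for lack of protein sequences. Alternatives were other transcript lengths and other sets of ranked genes. Calculations used Python 3.11.15, numpy 2.4.6 and pandas 2.3.3.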

Additional observations from a re-analysis of the deposited data

How the results depend on the processing

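With 1 pooled value per gene there was no spread to judge a change against. The median level of the 8 factors, 13.1 per kilobase of the longest transcript, became 11.4 per kilobase of merged exons and 27.8 per kilobase of coding sequence. *INSM1*, *NKX2-2* and *PAX4* were the highest 3 and *MYT1*, *ST18* and *RUNX1T1* the lowest 3 under each of these lengths, whereas the order within the lowest 3 and that of *FEV* and *ISL1* varied. With coding length *ISL1* stood at 28.9 and *FEV* at 26.6 per kilobase. The median percentile of 24.8 became 10.4 among protein-coding genes, 14.6 after removal of genes below a mean count of 10, 12.3 among genes listed at all 3 times and 22.1 when genes were ranked per kilobase. *INSM1* moved from percentile 56.3 to 38.7 among protein-coding genes and to 48.7 among genes listed at all 3 times, below the median in both. It stayed above the median in the other sets, at 50.4 after removal of genes below a mean count of 10 and at 59.1 per kilobase. No paired analysis was possible because the column used pools all samples. For the same reason the planned size factors, count filters, replicate block and omission of single replicates were not run. Without depth per library, counting error of the low levels is unknown.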
